A study of Mus musculus with 12 samples.

Results

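Cytosolic ribosomal protein genes encode the proteins of the large (60S) and small (40S) subunits of the ribosome that translates nuclear messages. They were described here in RNA sequencing of 12 wounds from the back skin of C57BL/6 mice with streptozotocin-induced diabetes. The genes were those whose symbol is Rpl or Rps followed by a number, with an optional a, l or x, together with Rplp0, Rplp1, Rplp2 and Rpsa, and with at least 100 counts in total over the 12 libraries. Of 24062 gene symbols, 81 had such a name and 79 reached the minimum, 47 of the large and 32 of the small subunit. Rpl10l and Rpl26 were left out with 4 counts each, and the members closest above the minimum were Rps27 with 939 counts, Rpl30 with 1826 and Rpl34 with 2651. All 79 passed the filter on low counts that left 16267 genes for testing. Ribosomal proteins with other names (such as Fau, Gnb2l1 and Rps3a1) fall outside the naming rule and are given at the end.

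Each library came from 1 mouse, with 3 mice in each of 4 treatment groups labelled blank, DSCG, pre-MCS-01 and post-MCS-01. All 4 groups share the strain, the streptozotocin diabetes and the wound, and no non-diabetic or unwounded skin was analysed here. MCS-01 is a mast cell stabilizer known by a code name, DSCG commonly stands for disodium cromoglycate, a drug of the same class, and blank names no agent and was taken as the control. Replicate numbers follow the order of the samples and pair no animals. The labels state neither dose, day, age nor sex, and do not say what the treatment came before or after in pre- and post-MCS-01.

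A ribosome holds 1 copy of nearly every ribosomal protein, and the genes are therefore transcribed at high and closely matched levels in growing tissue. Their messages are short and abundant, and most begin with a C followed by a run of pyrimidines. Through this 5′ terminal oligopyrimidine (TOP) tract the kinase mTOR controls their translation. In a healing wound, dividing keratinocytes and fibroblasts need new ribosomes. A few members have duplicates of restricted expression, such as Rpl3l in striated muscle.

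The annotated starts show which of these genes carry a readable TOP tract. RefSeq (GRCm38.p6) gave promoters for 58 of the 79 genes, with 70 annotated starts. A C at the start itself followed by at least 4 bases that are each C or T, read on the sense strand only, was found at 13 starts (18.6%), against 2.51% of all 32851 starts in the table. A run of at least 8 C or T within 10 bases of the start, which can overlap the first motif, was found at 41.4% of the members' starts against 13.7% of all. TATAAA on the same strand in the 50 bases before the start was found at 0 of the 70 starts and at 2.63% of all. Shown are 6 members with the strict motif, spanning both subunits and the P stalk, then Rpl27a, whose long run begins just before an annotated start that is not a C, and the paralogs Rpl3l and Rps27l at the first of their listed starts. Each line runs 5′ to 3′ from 30 bases before the annotated start to the end of the 20 bases that begin with it, and capitals mark the longest C/T run that reaches to within 10 bases of the start.
Rps6, chr4:86857348-86857397, minus strand: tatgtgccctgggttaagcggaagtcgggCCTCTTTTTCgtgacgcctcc
Rps18, chr17:33955646-33955695, minus strand: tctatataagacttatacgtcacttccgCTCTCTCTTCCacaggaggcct
Rps27, chr3:90213629-90213678, minus strand: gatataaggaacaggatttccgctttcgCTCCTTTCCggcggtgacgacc
Rplp2, chr7:141447621-141447670, plus strand: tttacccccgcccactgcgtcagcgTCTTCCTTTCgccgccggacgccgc
Rpl15, chr14:18270967-18271016, minus strand: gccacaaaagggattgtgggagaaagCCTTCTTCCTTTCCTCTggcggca
Rpl38, chr11:114668550-114668599, plus strand: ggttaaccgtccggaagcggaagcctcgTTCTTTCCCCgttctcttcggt
Rpl27a, chr7:109519165-109519214, plus strand: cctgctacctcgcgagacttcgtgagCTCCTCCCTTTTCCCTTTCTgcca
Rpl3l, chr17:24727796-24727845, plus strand: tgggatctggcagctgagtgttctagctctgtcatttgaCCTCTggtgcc
Rps27l, chr9:66946056-66946105, plus strand: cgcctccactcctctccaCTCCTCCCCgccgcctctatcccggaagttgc
Rpl15 has the longest run of the 6, with 17 bases, and Rpl3l has no run longer than 5 near that start. A match describes the letters at an annotated start and not the start used in these wounds.

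Gene counts totalled 3.77e+07 to 5.05e+07 in 11 libraries and 3.84e+06 in blank replicate 3. In 3 libraries (blank replicate 3, DSCG replicate 2, pre-MCS-01 replicate 2) longer transcripts were under-represented, with a Spearman's rho across genes between transcript length and the level relative to the average library of -0.373, -0.391 and -0.466, against -0.0574 to 0.426 in the other 9. Ribosomal protein messages are short, so the comparisons are given with all 12 libraries and without these 3. Skin markers were present throughout: Krt5 lay at 4978 to 8526 CPM, Krt10 at 3063 to 19520 and Col1a1 at 4529 to 30880, in CPM, the usual counts-per-depth unit, with library sizes scaled by TMM. Skeletal muscle genes were also present, and hair shaft genes averaged -1.41 to 1.25 log2 CPM in post-MCS-01 against 5.49 to 9.97 in the other groups.

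Ribosomal protein genes took up 4.62% to 10.4% of all gene counts. The share was 5.13%, 4.62% and 8.96% in blank replicates 1, 2 and 3. It was 6.00%, 8.69% and 5.98% in DSCG, 7.04%, 10.4% and 5.21% in pre-MCS-01, and 5.88%, 5.98% and 5.86% in post-MCS-01. The 3 highest libraries were the 3 short of long transcripts, 1 in each group but post-MCS-01, and the 4 groups overlapped. Group means were 6.24% ± 2.37 in blank, 6.89% ± 1.56 in DSCG, 7.55% ± 2.63 in pre-MCS-01 and 5.90% ± 0.0626 in post-MCS-01 (SD, n = 3). Without the 3 libraries they were 4.87% ± 0.364 in blank, 5.99% ± 0.0156 in DSCG and 6.12% ± 1.30 in pre-MCS-01 (SD, n = 2), and post-MCS-01, which lost none, had the second lowest of the 4 values instead of the lowest. The 2 remaining blank libraries were then the lowest of the 9. In such whole-tissue samples, fewer cells of a type and less RNA per cell cannot be told apart.

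**Figure D1:**
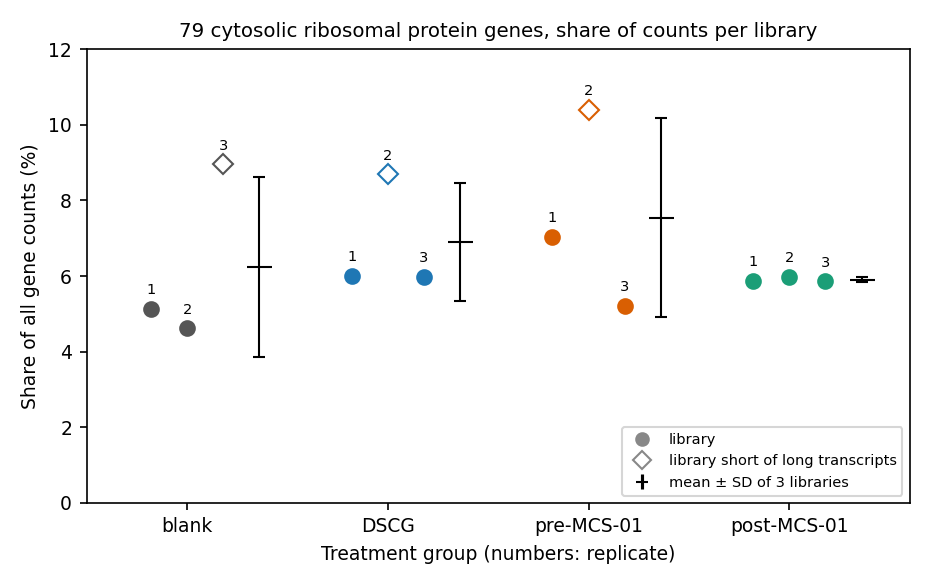
Share of all gene counts (%, y axis) taken by the 79 ribosomal protein genes in each library of the 4 treatment groups, with the mean and SD of 3 libraries to the right of each group. Open diamonds are the 3 libraries short of long transcripts, at 8.69% to 10.4%, above the other 9 at 4.62% to 7.04%.

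The genes varied together from library to library. Over the 12 libraries, 69 of the 79 correlated with the median of the other members at a Pearson's r over 0.9, as a description, since the points share library depth and scaling, and 65 did so over the 9 libraries. Rpsa, the laminin receptor protein of the small subunit, followed the median most closely (r = 0.997), and 65 of the 79 had the 3 libraries short of long transcripts as their top 3. The highest level was in pre-MCS-01 replicate 2 for 65 genes and the lowest in blank replicate 2 for 75. All 79 were on average higher in these 3 libraries than in the other 9, by a median of 0.86 on the log2 scale and a range of 0.11 (Rpl3l) to 1.21 (Rps26). The members that followed the median least over the 12 libraries were Rpl3l (r = -0.0864), Rpl39l (0.329), Rps4l (0.626), Rpl12 (0.779), Rps27 (0.784) and Rpl3 (0.792). Over the 9 libraries they were Rpl39l (-0.43), Rpl3l (-0.33), Rps4l (0.104), Rps27l (0.166) and Rps27 (0.272). Rpl12 was then at 0.953 and Rpl3 at 0.898.

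**Figure D2:**
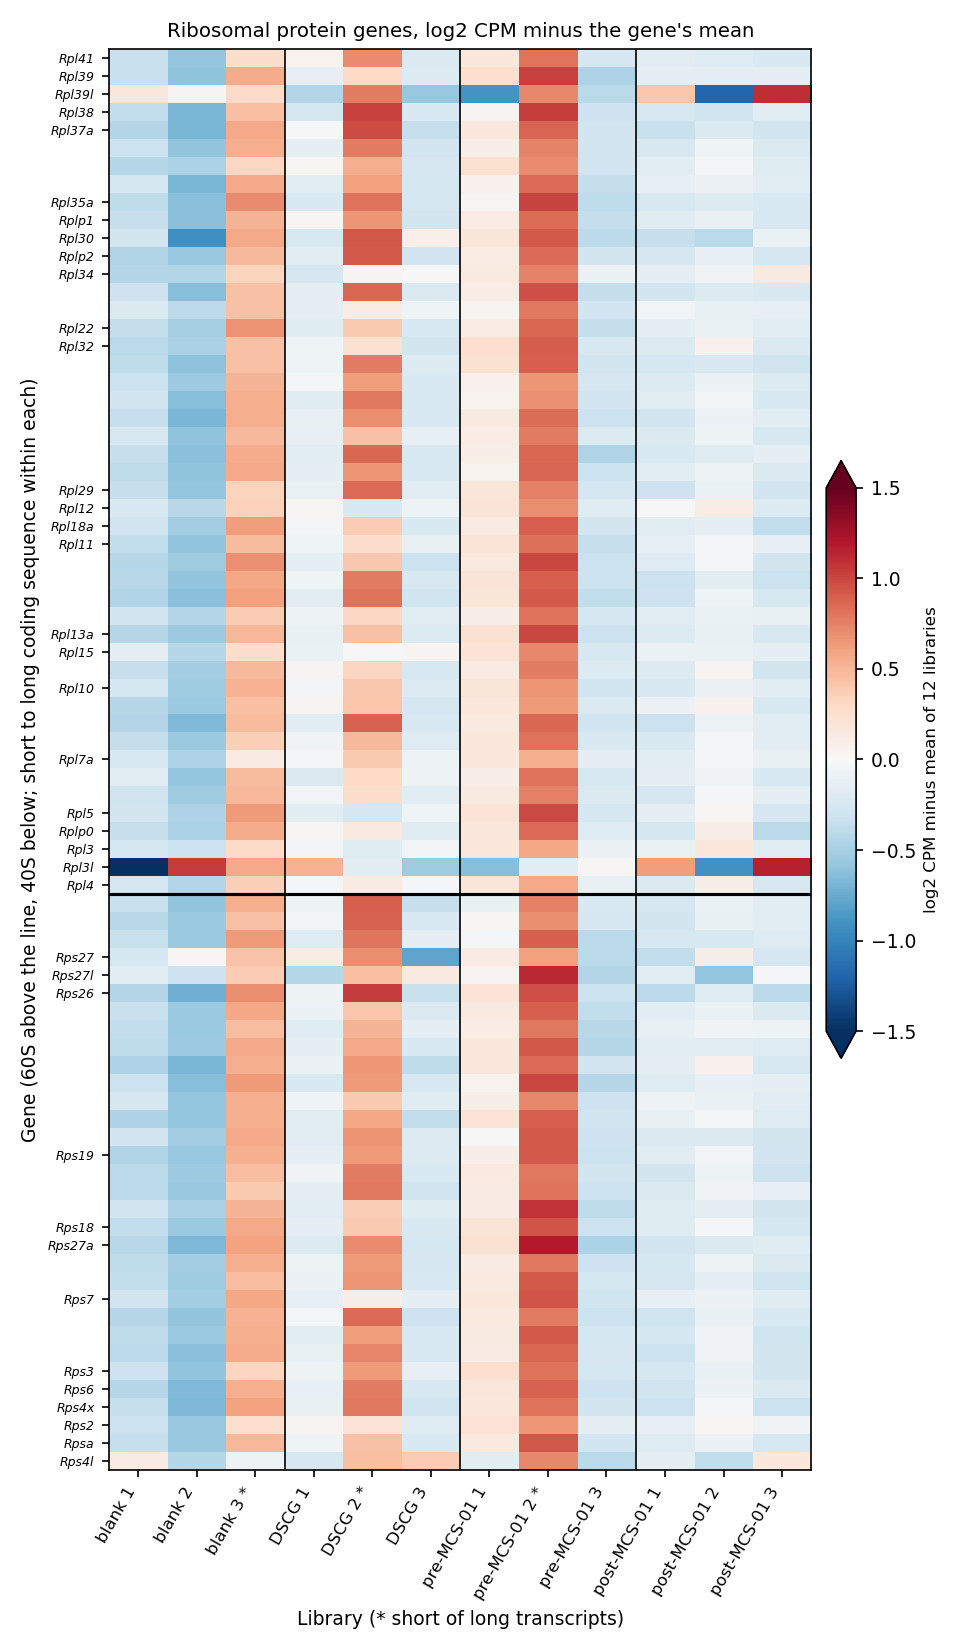
Heat map of log2 CPM minus the gene's mean over 12 libraries for the 79 genes (rows, 60S above the line and 40S below, each from short to long coding sequence, with Rps4l, which has none annotated, last; labelled rows are genes chosen by the naming rule) in 12 libraries (columns, by group; stars mark the 3 short of long transcripts). Starred columns are red in nearly all rows and the blank replicate 2 column is blue in nearly all; Rpl3l and Rpl39l break the pattern.

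Within the family, the excess averaged over the 3 libraries was smaller for the 26 longest genes. For 78 genes with an annotated coding sequence, 75 to 1257 bases long, the median excess was 0.90 in the 26 shortest genes, 0.90 in the 26 next and 0.71 in the 26 longest, and the Spearman's rho with coding length across genes was -0.391, a description across genes that are not independent. DSCG replicate 2 had the widest gap, at 0.89 for the shortest genes and 0.54 for the longest relative to the mean of the 9. In pre-MCS-01 replicate 2 these were 1.08 and 1.00, and in blank replicate 3 they were 0.75 and 0.68. Among the 9 other libraries, pre-MCS-01 replicate 1 was at 0.33, 0.35 and 0.35 in the 3 length classes, and blank replicate 2 at -0.35 in each. Post-MCS-01 replicate 1 was at 0.03 for the shortest and -0.04 for the longest genes, and replicate 3 at 0.05 and -0.02. These gaps were about as wide as in pre-MCS-01 replicate 2 and blank replicate 3. Post-MCS-01 replicate 2 (0.09 and 0.15) and pre-MCS-01 replicate 3 (-0.12 and -0.05) went the other way. Single genes followed the trend of the 3 libraries only loosely. The long Rpl3 (1209 bases), which helps shape the peptidyl transferase centre, was 0.31 higher in the 3 libraries and the short Rpl38 (210 bases) 1.12, but Rps6 (747 bases) was 0.98 higher and Rpl34 (351 bases) 0.50.

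**Figure D3:**
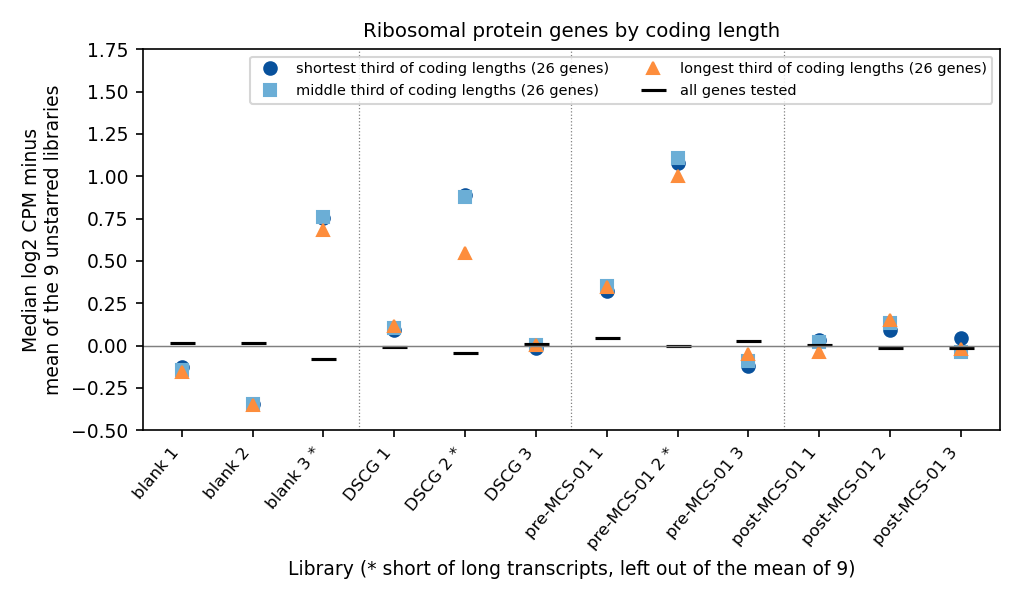
Median log2 CPM minus the mean of the 9 unstarred libraries (y axis) in each library, for ribosomal protein genes in 3 classes of coding length (26 genes each) and for all genes tested (black bars). The starred libraries lie between 0.54 and 1.11 in every class while all genes stay within 0.08 of 0; in DSCG replicate 2 the longest genes lie lowest.

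The P stalk of the large subunit, which recruits the translation factors that hydrolyse GTP, is built from Rplp0 and dimers of Rplp1 and Rplp2. Rplp0 (chromosome 5, 115559467 to 115563727, plus strand; GENCODE M21 on GRCm38), also the most abundant member by count, lay at 2399, 2189 and 4490.5 CPM in blank replicates 1 to 3, at 3078, 3372 and 2690.2 in DSCG, at 3432, 5501 and 2668 in pre-MCS-01, and at 2555, 3257 and 2302 in post-MCS-01. Blank replicate 3 and pre-MCS-01 replicate 2 stood above all others and the groups overlapped. Rplp2 lay at 457, 423 and 878 CPM in blank, 561, 1183 and 515 in DSCG, 677, 1126 and 519 in pre-MCS-01, and 525, 575 and 527 in post-MCS-01. For this shorter gene DSCG replicate 2 was the highest library, which it was not for Rplp0.

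Rpl5 and Rpl11 bind the 5S ribosomal RNA and, when ribosome assembly fails, hold Mdm2 and so stabilise p53. Rpl11 lay at 684, 586 and 1223 CPM in blank, 843, 1057 and 816 in DSCG, 1003, 1561 and 694 in pre-MCS-01, and 807, 860.1 and 807 in post-MCS-01. Rpl5, its partner, lay at 768, 674 and 1442 CPM in blank, 826, 780.4 and 887 in DSCG, 1069.5, 1839 and 775 in pre-MCS-01, and 845, 948 and 780.2 in post-MCS-01. The 2 partners parted in DSCG replicate 2, which was below the other 2 DSCG libraries for Rpl5 and above them for Rpl11. Of the genes lining the tunnel through which the new protein leaves, Rpl4 lay at 958 to 1925 CPM and Rpl39, the shortest of them, at 221 to 685 over the 12 libraries.

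In the small subunit, Rps2 and Rps3 surround the entry of the mRNA channel. Rps2 lay at 1978, 1670.4 and 2955 CPM in blank, 2564, 2886 and 2176 in DSCG, 2888, 3888 and 2239 in pre-MCS-01, and 2287, 2538 and 2384 in post-MCS-01. Blank replicates 1 and 2 were the lowest libraries and pre-MCS-01 replicate 2 the highest. Rps6, the substrate of S6 kinase downstream of mTOR, lay at 782, 665 and 1537 CPM in blank, 964, 1805 and 893 in DSCG, 1184, 1948 and 846 in pre-MCS-01, and 855, 991 and 908 in post-MCS-01. Rps26, which lies at the mRNA exit and is among the genes mutated in the inherited marrow failure Diamond-Blackfan anaemia, showed the widest spread among well-expressed members, with 428, 349 and 939 CPM in blank, 552, 1206 and 460.1 in DSCG, 669, 1136 and 464 in pre-MCS-01, and 438, 507 and 442 in post-MCS-01. The 3 libraries short of long transcripts stood apart from the other 9 for both Rps6 and Rps26. Rps27a, translated as a fusion with ubiquitin, had its highest level in pre-MCS-01 replicate 2 (1334 CPM) and its lowest in blank replicate 2 (366 CPM).

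No ribosomal protein gene passed the test in any of the 6 comparisons between groups or in the joint test of the 4 groups (edgeR quasi-likelihood, Benjamini-Hochberg adjusted p under 0.05 over all genes tested), and in the joint test neither did any other gene (0.0% of all genes, with 12 libraries and with 9). No member reached an unadjusted p under 0.05 in edgeR with 12 libraries, and the smallest edgeR adjusted p in the 6 comparisons was 0.604. Other methods also called 0 members in the joint test. Of all 16267 genes, DESeq2 called 568 there, limma-voom 1 and limma-voom with library quality weights 2189. DESeq2 also called 0 members in every comparison, while it called 0.441% of all genes between pre-MCS-01 and blank, 2.57% between post-MCS-01 and blank, 2.63% between pre- and post-MCS-01, 0.105% between pre-MCS-01 and DSCG, 3.81% between post-MCS-01 and DSCG and 0.0% between DSCG and blank. limma-voom called 0 members, with 0.00615% of all genes between pre- and post-MCS-01, 0.0123% between post-MCS-01 and DSCG and 0.0% elsewhere. With library quality weights it called 1 member, Rpl34, between pre-MCS-01 and blank (15.3% of all genes) and 1, Rpl39l, between pre- and post-MCS-01 (23.5%), and 0 members between post-MCS-01 and blank (5.08%) and in the other comparisons (0.0%). In the 9 libraries edgeR called 0 members and 0.0% of all genes, with a smallest adjusted p of 0.482 for a member, and 2 members had an unadjusted p under 0.05, both between pre-MCS-01 and blank. The absence of calls does not show equal levels: Rpsa, typical of the family, was at 0.41 ± 0.37 (SE, log2) between pre-MCS-01 and blank, with a 95% interval from -0.30 to 1.13. The comparisons with blank share its 3 libraries, and likewise for each other group, so their values are set side by side and not counted as separate evidence.

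**Figure D4:**
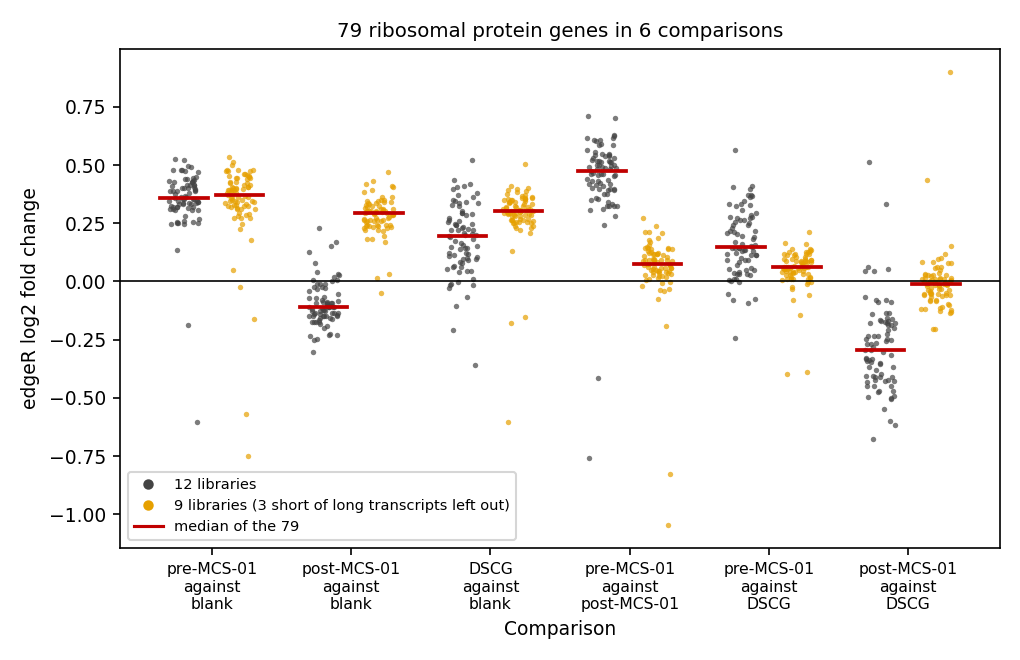
edgeR log2 fold changes (y axis) of the 79 genes in 6 comparisons (x axis), with all 12 libraries (dark grey) and with the 9 that remain without those short of long transcripts (orange); red bars are medians. The median of post-MCS-01 against blank moves from -0.11 to 0.29 and that of pre-MCS-01 against post-MCS-01 from 0.47 to 0.08.

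Between pre-MCS-01 and blank wounds, ribosomal protein genes leaned higher in pre-MCS-01 without any of them passing. With 12 libraries, 0 of 79 were called, as were 0.0% of all 16267 genes, and 77 of 79 had a positive log2 fold change, with a median of 0.36 (1.28-fold) and a range of -0.60 to 0.53, against a median of 0.04 over all genes. Both subunits took part, with 45 of 47 genes of the large and 32 of 32 of the small subunit positive. Rps27a was at 0.53 ± 0.45 (SE), Rpl30 at 0.52 ± 0.46, Rpl34 at 0.49 ± 0.29 and Rps19, the gene most often mutated in Diamond-Blackfan anaemia, at 0.39 ± 0.38 (edgeR adjusted p from 0.730 to 0.809 for these 4). In the 9 libraries, 75 of 79 were positive with a median of 0.37. Then 53 of 79 members (67.1%) lay higher in both remaining pre-MCS-01 libraries than in both blank libraries, against 25.3% of all genes, and Rpl39l lay lower (22.1% of all genes); with all 12 libraries these counts were 0 members, against 8.41% and 5.96%. The members vary together from library to library, so these counts are not independent observations. The family median was 9.15 log2 CPM in both pre-MCS-01 replicate 3 and blank replicate 1. The members nearest the threshold in the 9 libraries were Rps23 at 0.48 ± 0.20 and Rpl14 at 0.47 ± 0.20 (edgeR adjusted p = 0.752 for both).
The median rested on single libraries. Of the 12 libraries, dropping pre-MCS-01 replicate 1, 2 or 3 gave 0.44, -0.0037 and 0.54. Dropping blank replicate 1, 2 or 3 gave 0.18, 0.11 and 0.75. Among the 9 libraries, the median fell to 0.16 if pre-MCS-01 replicate 1 was dropped and rose to 0.56 if replicate 3 was. Dropping blank replicate 1 or 2 from the 9 gave 0.47 and 0.28. With each library's trend in transcript length as a covariate the median was 0.16. With library quality weights Rpl34 was at 0.54 ± 0.16 (limma-voom adjusted p = 0.0451).
Cell type markers differed in the same comparison, with 0 of the genes in these lists called. Cell cycle genes were positive in 16 of 16 (median 0.74, and 0.41 in the 9 libraries), with a summed level of 724 to 995 CPM in pre-MCS-01 and 388 to 690 in blank. Neutrophil genes were positive in 8 of 8 (1.11, and 1.51 in the 9), with sums of 4127 to 6551 against 580.2 to 938 CPM. Fibroblast and matrix genes were positive in 0 of 8 (-0.53, and -0.64), endothelial genes in 0 of 6 (-0.61, and -0.52) and macrophage genes in 1 of 8 (-0.65, and -0.55). Their part in the ribosomal protein levels was not tested.

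The sign of post-MCS-01 against blank depended on the libraries used. With all 12, 12 of 79 genes were positive and the median was -0.11 (-0.30 to 0.23), with 0 of 79 called and 0.0% of all genes. Without the 3 libraries, of which only the blank group lost 1 here, 78 of 79 were positive with a median of 0.29 (-0.05 to 0.47), while the median over all genes was -0.01 with 12 libraries. Rps2 went from 0.13 ± 0.29 to 0.40 ± 0.22, Rps6 from -0.11 ± 0.40 to 0.35 ± 0.20, Rps26 from -0.30 ± 0.46 to 0.26 ± 0.21 and Rplp0 from -0.16 ± 0.35 to 0.24 ± 0.24. In the 9 libraries, 70 of 79 members (88.6%) lay higher in all 3 post-MCS-01 libraries than in both blank ones, against 16.4% of all genes, and 0 lay lower, against 20.2%; with 12 libraries it was 0 members against 8.92% higher and 9.45% lower. Because the members vary together, these 70 are not independent observations of the treatment. Quality weights gave a median of 0.08 and the length covariate one of 0.15, while the 3 library scalings tried kept the negative sign with 12 libraries. With 12 libraries the median was 0.28 without blank replicate 3, -0.25 without blank replicate 1 and -0.33 without blank replicate 2. Among the 9, it was 0.38 without blank replicate 1 and 0.19 without blank replicate 2.

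Between DSCG and blank wounds, 70 of 79 genes were positive, with a median of 0.20 (-0.36 to 0.52), 0 of 79 called and 0.0% of all genes. The members furthest up were Rpl30 at 0.52 ± 0.46, Rpl38, whose loss in the mouse alters the axial skeleton, at 0.44 ± 0.44, and Rpl29 at 0.42 ± 0.35, and those furthest down were Rpl3l at -0.36 ± 0.61 and Rpl5 at -0.21 ± 0.35. Leaving out the 3 libraries, 1 from each of these groups, 76 of 79 were positive with a median of 0.30, and Rpl5 was at 0.26 ± 0.22. In those 9 libraries 71 of 79 (89.9%) lay wholly above blank, against 11.6% of all genes, and Rpl39l wholly below, against 13.3%. With 12 libraries it was 0, against 1.91% higher and 1.77% lower. Here too the members vary together and are not independent observations. With 12 libraries the median was -0.10 without DSCG replicate 2, 0.58 without blank replicate 3, 0.03 without blank replicate 1 and -0.02 without blank replicate 2. It was 0.31 and 0.34 without DSCG replicates 1 and 3, and 0.09 with the length covariate.

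Pre-MCS-01 against post-MCS-01 had the largest median of the 6 comparisons with 12 libraries. In that fit, 77 of 79 genes were higher in pre-MCS-01 by a median of 0.47 (1.39-fold; -0.76 to 0.71), with 0 of 79 called against 0.824% of all genes. Rps26 was at 0.71 ± 0.46, Rps27a at 0.70 ± 0.45, Rps27l at 0.63 ± 0.38, and Rpl27 at 0.62 ± 0.37 (edgeR adjusted p from 0.604 to 0.634). Without the 3 libraries, of which pre-MCS-01 lost 1 and post-MCS-01 none, the median was 0.08 with 69 of 79 positive, Rps27l was at 0.03 ± 0.25, and Rps26 was at 0.27 ± 0.21 and Rps27a at 0.12 ± 0.22. No member was separated between the groups in either set of libraries, against 10.7% higher and 7.01% lower of all genes with 12 and 13.2% and 9.5% with 9. The length covariate gave a median of 0.00238 with 41 of 79 positive, and leaving out pre-MCS-01 replicate 2 alone gave 0.10. Among the 9 libraries the median was -0.17 with 0 of 79 positive when pre-MCS-01 replicate 1 was left out, and 0.26 when replicate 3 was. Rpl3l, at the lower end of the range (-0.76), and Rpl39l (-0.41 ± 0.57) went the other way with 12 libraries. Rpl39l was at -1.05 ± 0.58 without the 3 and at -1.20 ± 0.33 with quality weights (limma-voom adjusted p = 0.0241).

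Pre-MCS-01 and DSCG wounds each had 1 library short of long transcripts. The median was 0.15 (-0.24 to 0.56) with 73 of 79 positive and 0 of 79 called against 0.0% of all genes, and 0.06 with 69 of 79 without the 3. Rpl5 was highest at 0.56 ± 0.35 and went to 0.08 ± 0.22 without the 3 libraries, followed by Rps7 at 0.41 ± 0.34 (0.06 ± 0.21). No member was separated with 12 libraries (2.53% and 2.59% of all genes) or with 9 (12.2% and 9.47%). The sign of the median rested on single libraries: it was -0.23 when pre-MCS-01 replicate 2 was left out, -0.03 when DSCG replicate 3 was and 0.46 when DSCG replicate 2 was. Leaving out DSCG replicate 1, pre-MCS-01 replicate 1 or pre-MCS-01 replicate 3 gave 0.07, 0.24 and 0.34. Among the 9 libraries the median was -0.18 with 1 of 79 positive when pre-MCS-01 replicate 1 was left out, 0.26 with 76 of 79 when pre-MCS-01 replicate 3 was and -0.0056 with 36 of 79 when DSCG replicate 3 was.

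Between post-MCS-01 and DSCG wounds the family leaned lower in post-MCS-01 with 12 libraries and not without the 3. With 12, 73 of 79 genes were lower in post-MCS-01 by a median of -0.29 (-0.68 to 0.51), among them all 32 of the small subunit, with 0 of 79 called against 1.06% of all genes. Rps26 was lowest at -0.68 ± 0.46, then Rpl30 at -0.62 ± 0.44 and Rpl37a at -0.60 ± 0.42. Without the 3 libraries the median was -0.01 with 32 of 79 positive, and Rps26 was at -0.13 ± 0.21. Rpl15, Rpl27 and Rps15 lay lower in all 3 post-MCS-01 than in all 3 DSCG libraries (8.28% of all genes, and 7.14% for higher, with 0 members). Rpl15 lay at 673, 720.2 and 738 CPM in DSCG and at 673, 672 and 659 in post-MCS-01, a separation by less than 1 CPM at its nearest (log2 fold change -0.09 ± 0.26). In the 9 libraries these 3 genes stayed lower (11.6% of all genes), which leaving out 1 DSCG library could not change. Rpl22, Rps24 and Rps25 lay higher there (10.2%). The median was -0.0080 without DSCG replicate 2 and 0.06 with the length covariate.

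The balance of the subunits differed little. The summed CPM of the small-subunit genes was 0.638 to 0.723 of that of the large-subunit genes over the 12 libraries, with DSCG replicate 2 highest (0.723) and pre-MCS-01 replicate 2 next (0.684). By group the ratio was 0.651 ± 0.0177 in blank, 0.668 ± 0.0476 in DSCG, 0.659 ± 0.0223 in pre-MCS-01 and 0.651 ± 0.00985 in post-MCS-01 (SD, n = 3). These differences were smaller than the largest spread between replicates, that of DSCG, which includes replicate 2. Without the 3 libraries the ratio was 0.641 ± 0.0041 in blank, 0.640 ± 0.00071 in DSCG and 0.647 ± 0.0099 in pre-MCS-01 (SD, n = 2). Post-MCS-01, which lost none, stayed at 0.651 ± 0.00985. The 4 members often used as reference genes in expression assays, Rplp0, Rpl13a, Rps18 and Rpl19, followed the rest of the family. Rpl13a lay at 1357, 1253 and 2579 CPM in blank, 1685, 2478 and 1582 in DSCG, 2134, 3642 and 1454 in pre-MCS-01, and 1575, 1692 and 1540.3 in post-MCS-01. Pre-MCS-01 replicate 2 was the highest and blank replicate 2 the lowest library, as for most of the family. Between pre- and post-MCS-01 these 4 were at a median of 0.52, and of 0.12 without the 3 libraries. Of 9 members chosen as mutated in Diamond-Blackfan anaemia, a list that need not be complete, 9 were positive between pre-MCS-01 and blank (median 0.35). Between post-MCS-01 and blank 0 of these 9 were positive (-0.15), which became 9 of 9 (0.28) without the 3.

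The 4 paralogs of restricted or duplicate use did not all follow the family. Rpl3l (chromosome 17, 24727820 to 24736143, plus strand), which replaces Rpl3 in striated muscle ribosomes, lay at 4.21, 25.2 and 18.1 CPM in blank, 17.5, 10.9 and 8.38 in DSCG, 7.83, 10.9 and 12.3 in pre-MCS-01, and 18.9, 6.48 and 27.1 in post-MCS-01. Blank replicate 2, lowest for most of the family, was second highest for Rpl3l, and all groups overlapped. Its log2 CPM went with the mean log2 CPM of 8 skeletal muscle genes (Acta1, Ckm, Myh4, Myh1, Tnnt3, Tnnc2, Mylpf and Actn3), a relation looked at after its departure from the family was seen. The permutations ignored the groups, and their adjustment does not cover the choice of Rpl3l from the family. Over 12 libraries Pearson's r was 0.756 (permutation p = 0.00465, adjusted 0.0093 over the 2 genes tried) and Spearman's rho 0.748 (permutation p = 0.00658, adjusted 0.0132), and r was 0.563 without blank replicate 2 and post-MCS-01 replicate 3, the libraries furthest from the median. Over the 9 libraries r was 0.899 (exact permutation p = 0.00189, adjusted 0.00378) and rho 0.883 (exact permutation p = 0.00308, adjusted 0.00616), and r was 0.815 without blank replicate 1 and post-MCS-01 replicate 3. For Rpl3, the general gene, r was -0.307 over 12 libraries (permutation p = 0.334, adjusted 0.334) with a rho of -0.189 (permutation p = 0.556, adjusted 0.556). Over 9 libraries these were -0.324 (exact permutation p = 0.386, adjusted 0.386) and -0.317 (exact permutation p = 0.410, adjusted 0.410), and without the libraries furthest from the median r was -0.0062 and -0.648.

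**Figure D5:**
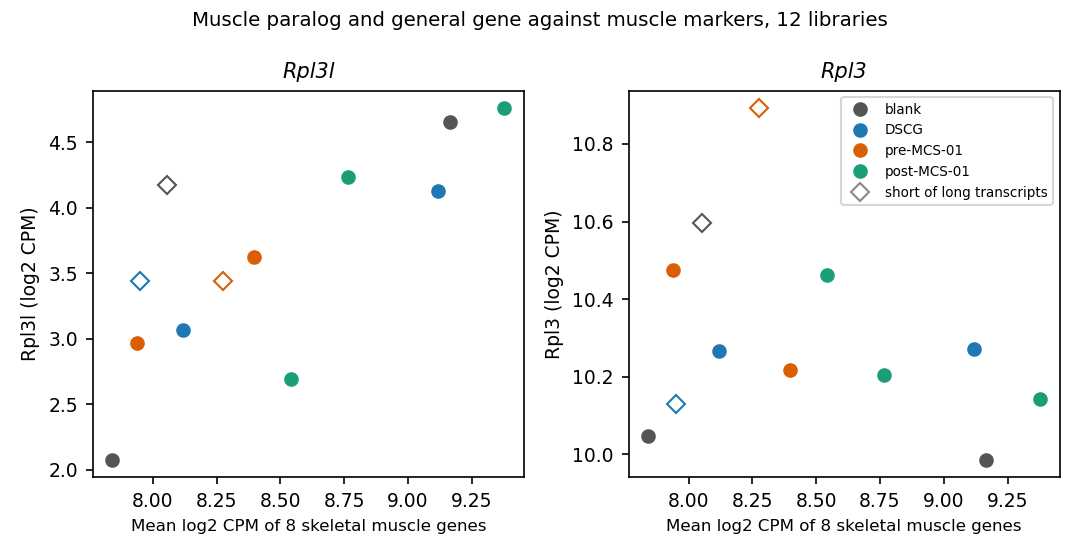
Log2 CPM of Rpl3l (left) and Rpl3 (right) on the y axes against the mean log2 CPM of 8 skeletal muscle genes (x axis) in 12 libraries, coloured by group, with open diamonds for the 3 libraries short of long transcripts. Rpl3l is higher where the muscle genes are higher (r = 0.756 over 12 libraries); Rpl3 shows no such relation (r = -0.307).

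Rpl39l, a paralog of the tunnel protein Rpl39 known from male germ cells, lay at 6.55, 5.99 and 7.07 CPM in blank, 4.28, 9.91 and 3.92 in DSCG, 3.13, 9.63 and 4.39 in pre-MCS-01, and 7.76, 2.54 and 12.5 in post-MCS-01. Its post-MCS-01 libraries spanned the whole range of the 12, from the lowest in replicate 2 to the highest in replicate 3. Rps27l, a paralog of Rps27 induced by p53, lay at 62.7, 57.0 and 92.2 CPM in blank, 52.6, 96.8 and 77.8 in DSCG, 73.0, 153 and 52.1 in pre-MCS-01, and 63.2, 47.5 and 69.7 in post-MCS-01. It followed the family in being highest in pre-MCS-01 replicate 2 (r = 0.843 with the family median, and 0.166 over the 9 libraries). Rps4l, annotated as a transcribed processed pseudogene without a coding sequence, lay at 29.9 to 66.0 CPM, lowest in blank replicate 2 and highest in pre-MCS-01 replicate 2.

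Levels between genes were compared per kilobase of coding sequence, which leaves out the untranslated ends. The median over 78 genes was 1604 CPM per kb. Rpl41, which encodes the smallest ribosomal protein from 75 coding bases, was highest at 25670, a value that its short coding sequence inflates, followed by Rplp1 at 5783. The lowest were Rps27 at 8.06, Rpl3l at 11.4, Rpl30 at 11.6, Rpl34 at 16.4 and Rpl39l at 42.3. Rps27, Rpl30 and Rpl34 are general ribosomal proteins, not restricted paralogs, and the next general member, Rpl14, was at 597 CPM per kb. Rpl26, also general, had 4 counts in total. Rps27 lay at 1.63, 1.98 and 2.62 CPM in blank, 2.10, 3.16 and 1.12 in DSCG, 2.11, 2.98 and 1.47 in pre-MCS-01, and 1.51, 2.06 and 1.63 in post-MCS-01. Its strict TOP start is shown above. All groups overlapped for it.

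Ribosomal protein genes have many processed copies in the mouse genome, and reads from a shared stretch cannot be assigned with certainty. Of all words of 50 bases in a member's coding sequence, none was unique among annotated transcripts for 29 members and fewer than 20% were for 55. Every word was unique for Rpl39l and Rpl3l. Rps27 had no unique word and shared words with 9 other genes, Rpl30 had 16.9% unique words, Rpl34 27.8% and Rpl26 12.7%. Rps12, also with none, lay at 2543 CPM per kb, and over the family the share of unique words had a Spearman's rho of 0.0297 with the level per kb. The part of such copies in the low counts was not tested. Alignments that were not unique made up 17.2% to 23.4% of each file's total, and the counting of strand is not given in the sources used here, so reads of overlapping and antisense genes cannot be separated.

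Some related gene lists shared the excess in the 3 libraries. The mean log2 CPM of ribosomal proteins with other names, translation factors, mitochondrial ribosomal proteins and respiratory chain genes was higher in each of the 3 than in any of the other 9, and that of mTOR pathway genes was lower in each of the 3 than in any of the other 9. Of the 7 tested ribosomal proteins with other names, 7 were positive between pre-MCS-01 and blank (median 0.33) and 1 between post-MCS-01 and blank (-0.09), which became 7 without the 3 libraries (0.24). Translation factors were positive in 39 of 41 between pre-MCS-01 and blank (median 0.31, and 0.26 without the 3). Between post-MCS-01 and blank they were positive in 21 of 41 (0.02) with 12 libraries and in 41 of 41 (0.16) without the 3. Ribosome biogenesis genes, which include rRNA processing factors and Myc, were positive in 75 of 75 between pre-MCS-01 and blank (0.42, and 74 of 75 with 0.30 in the 9 libraries) and in 68 of 75 between post-MCS-01 and blank (0.25, and 72 of 75 with 0.35). Mitochondrial ribosomal proteins, which serve another ribosome, were positive in 77 of 77 between pre- and post-MCS-01 (0.32) and in 41 of 77 without the 3 libraries (0.02). Short genes of the respiratory chain went from 54 of 54 (0.31) to 14 of 54 (-0.05) in that comparison. Genes of the mTOR pathway were positive in 9 of 22 there, and in 12 of 22 without the 3. None of the genes in these 6 lists was called in any of the 6 comparisons.

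Marker lists of cell types also differed between the libraries that set the family's range. Blank replicate 2, the lowest library for most members, had a mean of 9.17 log2 CPM for 8 skeletal muscle genes, where the 12 libraries ran from 7.84 to 9.38. The highest muscle mean was in post-MCS-01 replicate 3, where the family median was 0.00075 relative to the mean of the 9. The lowest was in blank replicate 1, where the family median was -0.14. Pre-MCS-01 replicate 1, the highest of the 9 at a family median of 0.35 above their mean, had 10.7 for epidermal differentiation genes (8.72 to 10.8 over all libraries). It had 9.24 for fibroblast and matrix genes, the lowest of the 12 (highest 11.3). DSCG replicate 1 had the highest mean for epidermal differentiation genes, at 10.8, with a family median of 0.10 above the mean of the 9. Cell cycle genes averaged 5.64 log2 CPM in pre-MCS-01 replicate 2, their highest, and 4.16 in blank replicate 3, their lowest. By group they were positive in 16 of 16 between post-MCS-01 and blank (median 0.33), DSCG and blank (0.37), pre- and post-MCS-01 (0.43) and pre-MCS-01 and DSCG (0.33), and in 6 of 16 between post-MCS-01 and DSCG (-0.06). In the 9 libraries these medians were 0.16, 0.20, 0.25, 0.17 and -0.04. Neutrophil genes were positive in 8 of 8 between post-MCS-01 and blank (2.05, and 2.08 in the 9). Neutrophil genes were lowest in DSCG replicate 3 (0.62) and highest in post-MCS-01 replicate 2 (6.64). The part of these cell types in the ribosomal protein levels was not tested.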

How the data were processed

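Raw counts per gene symbol were deposited by the authors, 1 file for each of 12 libraries. Per the submitters' processing notes the tools were FastQC, TopHat2, Bowtie2, HTSeq and limma with build mm10, versions not given in the sources used here. Per the labels' protocols, libraries were made from total RNA with an Illumina TruSeq RNA kit. The 5 summary lines of each file stayed out of all totals (reads in no gene 4.34% to 6.81%, ambiguous 0.956% to 1.35%, not unique 17.2% to 23.4%).

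Groups follow the treatment label. The counts were fitted with edgeR 4.0.16 in R 4.3.3 (filterByExpr, TMM, quasi-likelihood F test, 1 mean per group over all 12 libraries, Benjamini-Hochberg over all 16267 genes, adjusted p under 0.05), with a biological coefficient of variation of 0.347 (0.308 without the 3 libraries). Alternatives were RLE and total-count scaling, no filter, DESeq2 1.42.0, limma-voom 3.58.1 with and without library quality weights, only the 2 groups compared, a length covariate, and leaving out libraries. Coordinates and lengths are from GENCODE M21, starts from RefSeq.

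The genes and lists were chosen with earlier results of these data known. Named are members called in any comparison, the 3 highest and 3 lowest fold changes per comparison, the 5 most and least abundant, the 5 most and least variable, and 24 chosen for their roles; Rpl14, Rpl19, Rpl27, Rpl27a, Rps15, Rps23, Rps24, Rps25 and Rps12 were named after their values were seen.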

Additional observations from a re-analysis of the deposited data

How the results depend on the processing

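Over the 12 libraries left out in turn, the number of ribosomal protein genes called stayed at 0 in each of the 6 comparisons and the joint test, in fits that called 0 to 606 of at least 16394 genes (606 for post-MCS-01 against DSCG without DSCG replicate 1). The median log2 fold change ranged from -0.0037 to 0.75 for pre-MCS-01 against blank, -0.33 to 0.28 for post-MCS-01 against blank, -0.10 to 0.58 for DSCG against blank, 0.10 to 0.66 for pre- against post-MCS-01, -0.23 to 0.46 for pre-MCS-01 against DSCG and -0.42 to -0.0080 for post-MCS-01 against DSCG. limma-voom with quality weights called 1 gene in pre-MCS-01 against blank and 1 in pre- against post-MCS-01. Of the settings chosen after seeing the data, those that left out the 3 libraries and a further 1 moved 2 medians by more than the spread between libraries (SD 0.474): 0.38 for post-MCS-01 against blank without blank replicate 1 and -0.17 for pre- against post-MCS-01 without pre-MCS-01 replicate 1. The cause was not tested. For single genes, 299 of 7296 recomputed values moved by more than their spread and 2 passed the threshold. Blank replicate 3 held 3.84e+06 gene counts against at least 3.77e+07 in the others, which limits the precision of its low members. No paired analysis was possible because the labels carry no replicate numbers: those used here follow the order of the samples and only name them.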
